A study of Mus musculus with 7 samples.

Results

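Genes for ion channel subunits were examined in osteolineage cells sorted from mouse bone marrow stroma. Members were the genes whose array symbol names a subunit of a potassium (Kcn), calcium (Cacn), chloride (Clcn), HCN (Hcn), TRP (Trpc, Trpm or Trpv) or sodium channel (Scn). Of the 12393 genes measured by a probe set with a single gene symbol, 120 were members, covered by 176 probe sets. Scnm1 and Trpc4ap carry the same letters but name no channel subunit and were left out. The members were 62 potassium, 23 calcium, 14 TRP, 12 sodium, 7 chloride and 2 HCN channel genes. A gene with several probe sets was represented by the one of highest mean over the 7 arrays.

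All arrays came from OsxCre-mCherry;OcnCre-Topaz double transgenic mice aged 4 to 6 weeks, and the cells were sorted by flow cytometry 6 days after tamoxifen. Both groups therefore share the transgenes and the tamoxifen. The 3 Topaz Osteocalcin arrays (Ocn+) hold cells with the Topaz reporter of OcnCre-Topaz, osteocalcin being a late osteoblast product. The 4 mCherry Osterix arrays (Osx+) hold cells with the mCherry reporter of OsxCre-mCherry, osterix being an early osteoblast transcription factor. A sorted cell is thus defined by its reporter, and cells with both reporters were not analysed here. The labels do not say which arrays came from separate animals, so a p-value reflects the scatter of these arrays alone, which may be technical. The comparison asks which transcripts differ between osteocalcin-marked and osterix-marked cells.

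Ion channels are membrane pores that let particular ions pass down their gradients. Pore-forming subunits carry the conduction path, and auxiliary subunits change how a pore opens, closes or reaches the membrane. In bone, potassium and calcium channels help set the membrane potential and calcium entry of osteoblasts, mechanically or osmotically sensitive channels respond to load, and a chloride-proton exchanger of the osteoclast membrane works beside the proton pump that dissolves mineral. Blood and vessel cells of the marrow have channel genes of their own.

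Signals are log2 values made with RMA, which differ between probe sets for reasons other than transcript abundance. The dim rule below and the choice of the brightest genes rank signals across genes, so they describe signal and not abundance. Otherwise no gene's level is set against another's here. Since no detection calls were used, a gene was called dim where both group means lay under 6.03, the 25th percentile of gene means over all genes. For scale, 27 control probe sets against bacterial sequences lay between 3.21 and 5.54 on these arrays. Whether such transcripts were added to the samples is not given in the sources used here. Markers of osteoblasts were bright in both groups, with list means of 13.33 ± 0.30 in Ocn+ (SD, n = 3) and 13.14 ± 0.39 in Osx+ (SD, n = 4), 8 of 10 measured and 0 dim, and Bglap, the osteocalcin gene, was not analysed here. Of the other marker lists, the endothelial (10 of 10 measured genes above 0), neutrophil (10 of 10) and osteoclast (8 of 8) lists had a higher mean on every Ocn+ array than on every Osx+ array. The ranges of the list means were 9.81 to 10.51 against 6.04 to 9.09 for endothelium, 11.68 to 11.88 against 7.85 to 11.18 for neutrophils and 9.91 to 10.28 against 7.87 to 9.75 for osteoclasts. None of the endothelial or neutrophil markers was dim, and of the osteoclast markers Calcr was. Macrophage markers ran from 9.85 to 11.15 in Ocn+ and from 11.13 to 12.41 in Osx+, with 2 of 10 genes above 0 and 0 dim. In sorted pools of this kind, fewer cells of a type and less RNA per cell cannot be told apart.

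The arrays also differed along a second line. Ocn+ replicate 1 and Osx+ replicates 1 and 3 had a low signal for Xist, a transcript of the inactive X chromosome (4.87 to 5.79), and the other 4 arrays a high one (12.33 to 12.96). In the same 3 arrays the control probe set at the 3′ end of pyruvate carboxylase exceeded the one at the 5′ end by 2.22 to 2.80 log2 units, against 1.22 to 1.30 in the other 4. For Gapdh the excess was 0.89 to 1.26 against 0.59 to 0.64. For beta-actin it was 0.47 to 0.77 against 0.46 to 0.50, and these ranges overlapped. The balance of the ends thus separated the same arrays as Xist in 2 of the 3 control transcripts, and arrays of both cell groups lie on each side.

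Most channel genes gave little signal and few differed between the groups beyond the spread of the arrays. Of the 120 members, 70 (58.3%) were dim, against 23.7% of all genes, and 50 were not. The share over all genes follows closely from the limit, a 25th percentile. No member passed in limma at an adjusted p of 0.05, as 0 of all 12393 genes did (0%). At an unadjusted p under 0.05 there were 9 members (7.50%), where 5.31% of all genes met that level. Of these, 5 were higher in Ocn+ (background 3.48%) and 4 lower (background 1.83%). The arrays of the groups did not overlap for 7 members (5.83%), against 6.9% of all genes. Of these, 3 were higher in Ocn+ (background 4.37%) and 4 lower (background 2.53%), and the 4 lower ones were all dim. The median difference, Ocn+ minus Osx+, was -0.06 log2 units over the members and 0.02 over all genes, and 48 of 120 members (40.0%) were above 0, against 52.7% of all genes.

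By family, the median difference was -0.03 for potassium, -0.07 for calcium, 0.03 for chloride, -0.01 for HCN, -0.13 for TRP and -0.21 for sodium channel genes. All 12 sodium channel genes and both HCN genes were dim, as were 36 of 62 potassium, 12 of 23 calcium, 6 of 14 TRP and 2 of 7 chloride channel genes. Differences over 1 log2 unit in either direction were found for 7 members (5.83%), against 3.52% of all genes. Of these, 5 were higher in Ocn+ (background 2.26%) and 2 lower (background 1.26%). For 113 of the 120 members the 4 Osx+ arrays alone covered a wider range than the distance between the group means, as was so for 11850 of all 12393 genes.

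**Figure D1:**
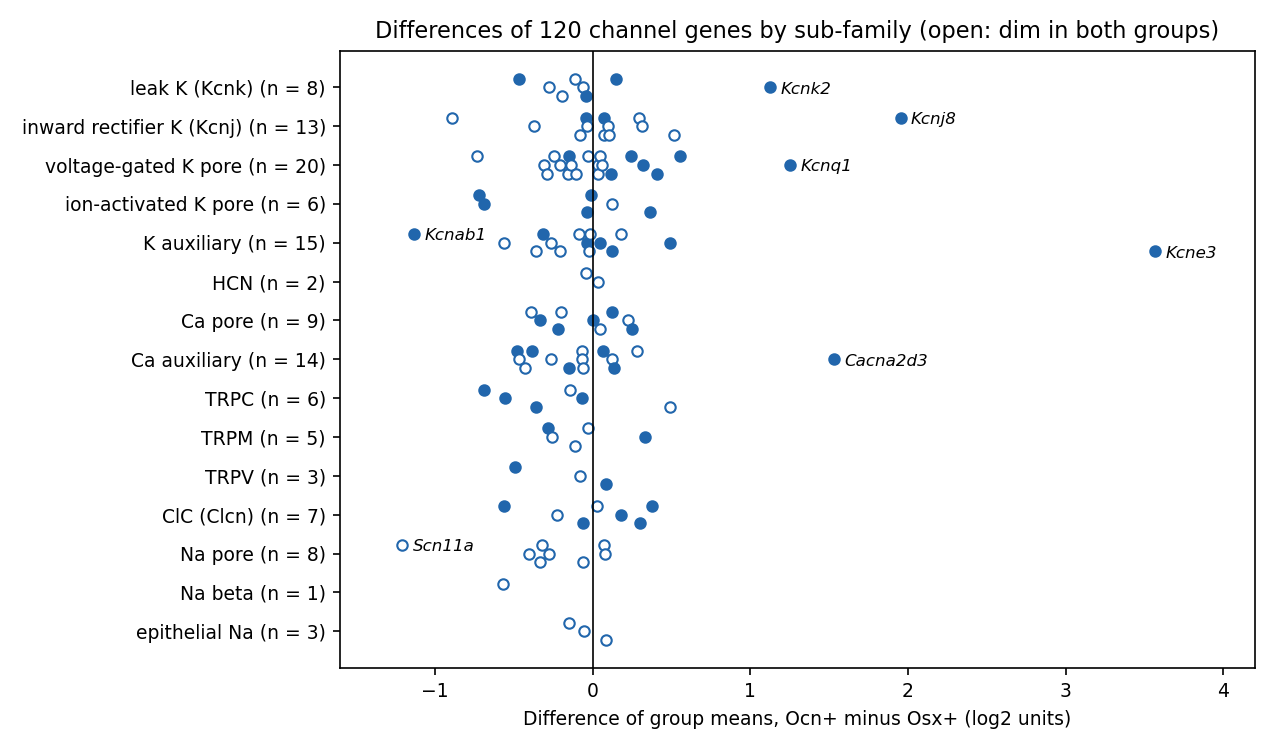
Difference of the group means (Ocn+ minus Osx+, log2 units) for each of the 120 channel genes, 1 point a gene, arranged by sub-family, with the number of genes beside each name. Open points are dim in both groups, and genes with a difference over 1 log2 unit are named. Most points lie near 0, and Kcne3 stands at 3.57.

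Kcne3 had the largest difference of all members. It encodes a small single-pass auxiliary subunit that joins voltage-gated potassium pores, among them that of Kcnq1, which it holds open. Its log2 signals were 9.65, 9.69 and 10.24 in Ocn+ replicates 1 to 3 and 7.16, 5.25, 6.59 and 6.15 in Osx+ replicates 1 to 4. Every Ocn+ array lay over 2 log2 units above every Osx+ array, and the value of 5.25 lies within the range of the bacterial controls. The means were 9.86 ± 0.33 in Ocn+ (SD, n = 3) and 6.29 ± 0.81 in Osx+ (SD, n = 4), an 11.9-fold brighter signal in Ocn+, with a difference of 3.57 (SE 0.44) and a limma adjusted p of 0.319. The difference was 4.26 among the high-Xist arrays and 2.78 among the low-Xist arrays, where Ocn+ has a single array. It passed with arrays weighted by their fit (difference 3.80, limma adjusted p = 0.0153), and across the other alternatives its adjusted p lay no lower than 0.0958, the value without Osx+ replicate 2. In that fit Ocn+ replicate 2 had a weight of 6.02, while the low-Xist arrays had 0.46 (Ocn+ replicate 1), 0.24 (Osx+ replicate 1) and 0.35 (Osx+ replicate 3), so it rests mainly on the high-Xist arrays and most on 1 Ocn+ array.

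Kcnq1, a pore that Kcne3 can join, showed a smaller difference in the same direction. It read 6.49, 6.29 and 6.69 in the Ocn+ arrays and 5.68, 5.04, 5.80 and 4.44 in the Osx+ arrays, and the groups did not overlap. The Osx+ signals reach into the range of the bacterial controls. The difference was 1.25 log2 units (SE 0.35), with a limma adjusted p of 0.731, and no fold is given because the Osx+ mean of 5.24 lies within that range. With array weights the difference was 1.59 (limma adjusted p = 0.0491), so that Kcne3 and Kcnq1 were the 2 members called in that fit, both higher in Ocn+, where 0.783% of all genes were called and 0.629% called higher in Ocn+. The endothelial, neutrophil and osteoclast list means also separated the groups on these arrays, and their part in the Kcne3 and Kcnq1 differences was not tested.

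RefSeq (GRCm38.p6) lists 2 promoter windows for Kcne3, each from 250 bases before to 50 after a start site, shown because this gene differs most. Capitals mark the core RUNX motif TGTGGT and the GC box GGGCGG, searched on both strands.
Kcne3, chr7:100176420-100176719, plus strand: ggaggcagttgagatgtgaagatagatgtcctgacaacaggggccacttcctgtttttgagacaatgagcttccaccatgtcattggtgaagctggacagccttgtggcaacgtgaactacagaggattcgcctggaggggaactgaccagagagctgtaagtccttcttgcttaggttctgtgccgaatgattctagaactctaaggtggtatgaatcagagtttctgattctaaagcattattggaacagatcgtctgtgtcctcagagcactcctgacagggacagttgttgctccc
Kcne3, chr7:100178433-100178732, plus strand: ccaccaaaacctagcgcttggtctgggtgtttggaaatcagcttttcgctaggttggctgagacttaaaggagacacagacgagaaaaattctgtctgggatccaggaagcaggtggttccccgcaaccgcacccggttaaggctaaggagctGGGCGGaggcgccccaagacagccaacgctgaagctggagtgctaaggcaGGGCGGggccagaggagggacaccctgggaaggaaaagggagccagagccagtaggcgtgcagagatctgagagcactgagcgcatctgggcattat
The downstream window holds 2 GC boxes and the upstream window none, and neither holds the RUNX letters. A GC box was found in 35.7% of the 32851 windows searched, which do not cover every chromosome, and the RUNX letters in 16.8%. Among the 134 of these windows that belong to 99 members, 44.8% held a GC box and 15.7% the RUNX letters.

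The remaining potassium channel subunits were mostly close to the line of equal means. Leak channels (Kcnk) keep the resting potential, and Kcnk2, a leak channel opened by stretch and membrane lipids, was the member of this kind that separated the groups. It read 7.28, 7.38 and 7.90 in the Ocn+ arrays and 6.10, 5.94, 6.82 and 6.74 in the Osx+ arrays. All Ocn+ values lay above all Osx+ values. The difference was 1.12 (SE 0.29), 2.18-fold, with a limma adjusted p of 0.728. The 4 high-Xist arrays gave 1.30 and the 3 low-Xist arrays 0.83. Kcnk1, a weakly conducting leak channel, stood at 12.10 ± 0.26 in Ocn+ (SD, n = 3) and 11.95 ± 0.31 in Osx+ (SD, n = 4), a difference of 0.15 (SE 0.22). Its other probe set differed by 0.74. Kcnk5, an acid-sensitive leak channel, differed by -0.47 (SE 0.39). The other Kcnk genes had differences within 0.3 log2 units of 0 and 4 of the 8 genes were dim.

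Among the inward rectifiers (Kcnj), Kcnj8 had the largest difference. It forms the pore of the ATP-sensitive potassium channel of vascular mural cells. Its signals were 10.70, 9.24 and 9.46 in the Ocn+ arrays and 8.61, 6.75, 9.50 and 6.52 in the Osx+ arrays. The groups overlapped because Osx+ replicate 3 was above Ocn+ replicates 2 and 3. The difference was 1.95 (SE 0.79), 3.87-fold, with a limma adjusted p of 0.935, with 2.72 in the high-Xist and 1.64 in the low-Xist arrays. Osx+ replicate 3 also had the highest Osx+ list mean for endothelial markers (9.09) and for pericyte and smooth muscle markers (10.95). The pericyte list, of which 8 of 8 were measured and 0 dim, ran from 9.96 to 10.69 in Ocn+ and from 9.51 to 10.95 in Osx+, with 3 of 8 genes above 0. The part of either cell type in the Kcnj8 difference was not tested.

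The single RefSeq promoter window of Kcnj8 (GRCm38.p6) is shown because Kcnj8 differs most among the inward rectifiers, and it holds neither the RUNX nor the GC box letters.
Kcnj8, chr6:142571565-142571864, minus strand: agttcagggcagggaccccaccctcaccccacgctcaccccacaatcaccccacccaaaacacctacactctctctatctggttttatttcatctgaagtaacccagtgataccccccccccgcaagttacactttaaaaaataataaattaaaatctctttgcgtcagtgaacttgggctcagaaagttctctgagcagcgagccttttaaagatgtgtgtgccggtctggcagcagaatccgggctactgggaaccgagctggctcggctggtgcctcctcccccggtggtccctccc
Of the 13 Kcnj genes, 10 were dim. Kcnj10, a glial and epithelial rectifier, read 4.76, 4.87 and 4.81 in the Ocn+ arrays and 6.67, 5.44, 5.11 and 5.60 in the Osx+ arrays. These groups did not overlap, at a difference of -0.89 (SE 0.36, limma adjusted p = 0.935), and the Ocn+ values lay within the range of the bacterial controls. Kcnj15 differed by 0.52 (SE 0.22) and was dim as well, as were Kcnj2 (0.31, SE 0.25), the main rectifier of muscle, and Kcnj6 (0.29, SE 0.19). The other probe sets of Kcnj6 gave -0.31, 0.00, -0.13 and -0.08. Kcnj9 and Kcnj14 lay just over the dim limit, with differences of 0.07 (SE 0.22) and -0.04 (SE 0.37). At the other probe sets of Kcnj9 the differences were -0.21 and 0.16.

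**Figure D2:**
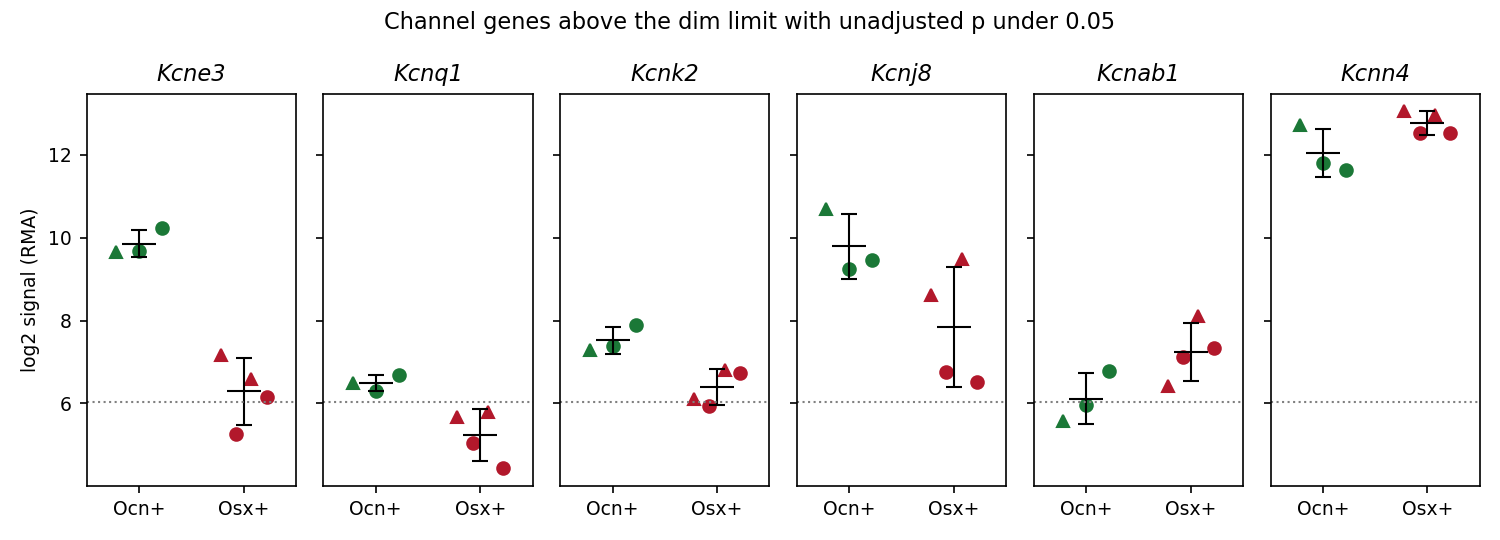
Log2 signal on each array for the 6 channel genes that were not dim and had an unadjusted p under 0.05, with Ocn+ arrays in green and Osx+ arrays in red, triangles for low-Xist and circles for high-Xist arrays, and the mean with its SD in black. The dotted line is the dim limit of 6.03. Kcne3, Kcnq1 and Kcnk2 do not overlap between the groups, and Kcnj8, Kcnab1 and Kcnn4 do.

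Voltage-gated potassium pores numbered 20, of which 13 were dim. Kcnh2, the pore of the rapid cardiac repolarizing current, read 7.90 ± 0.46 in Ocn+ (SD, n = 3) and 7.59 ± 0.38 in Osx+ (SD, n = 4), a difference of 0.32 (SE 0.29). Kcnh3, a related pore, differed by 0.12 (SE 0.20), Kcnc4, a fast-inactivating pore, by 0.24 (SE 0.16), and Kcns1, a silent subunit that modifies other pores, by 0.41 (SE 0.35). Over all 20 genes, 10 had a difference above 0 and 10 below. Kcna3, a pore of lymphocytes and macrophages, was dim. Its values ran from 4.68 to 4.74 in Ocn+ and from 4.89 to 5.08 in Osx+, apart by a difference of only -0.25 (SE 0.14).

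Among the potassium pores opened by calcium, Kcnn4 had the smallest unadjusted p. Kcnn4, the intermediate-conductance channel of red cells, lymphocytes and macrophages, read 12.72, 11.80 and 11.63 in the Ocn+ arrays and 13.05, 12.52, 12.97 and 12.53 in the Osx+ arrays. Ocn+ replicates 2 and 3 lay below all Osx+ arrays, while Ocn+ replicate 1 was above 2 of them. The difference was -0.72 (SE 0.30), with a limma adjusted p of 0.938, and the other probe set gave -0.71. Among high-Xist arrays it was -0.81 and among low-Xist arrays -0.30. For Kcnn4 the Xist classes did not overlap at either probe set. At the one used, low-Xist arrays read 12.72 to 13.05 and high-Xist arrays 11.63 to 12.53. The part of these classes in the cell-group difference was not tested. The macrophage list was lower in Ocn+ as well, by 1.18 log2 units in its mean, and its part in the Kcnn4 difference was not tested. Kcnn1, a small-conductance channel, differed by -0.04 (SE 0.46) and by 0.05 at its other probe set. Kcnma1, the large-conductance channel, differed by -0.69 (SE 0.74) and by 0.48 at its other probe set.

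The RefSeq promoter window of Kcnn4 (GRCm38.p6), the calcium-opened pore just described, holds the RUNX letters 4 times, marked in capitals with a GC box on the opposite strand.
Kcnn4, chr7:24370013-24370312, plus strand: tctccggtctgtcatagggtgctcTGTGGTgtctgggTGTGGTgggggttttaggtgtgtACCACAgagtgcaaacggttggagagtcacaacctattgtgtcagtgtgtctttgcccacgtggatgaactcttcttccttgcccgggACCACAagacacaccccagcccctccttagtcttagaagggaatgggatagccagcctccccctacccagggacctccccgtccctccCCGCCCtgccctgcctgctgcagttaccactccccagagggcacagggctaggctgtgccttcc
Of the 32851 windows searched, 15 held those letters 4 or more times (0.0457%). The windows of Kcnab1 and Kcnk2, also read but not printed, did not hold the RUNX letters, nor did those of Kcne3 and Kcnj8. These motifs were chosen after the windows of the printed genes had been seen, and a match describes letters only.

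Auxiliary potassium subunits held both the highest and the lowest difference among the 50 genes that were not dim. Besides Kcne3, Kcnab1, a cytoplasmic partner of Shaker-type pores, read 5.57, 5.97 and 6.78 in the Ocn+ arrays and 6.42, 7.12, 8.11 and 7.33 in the Osx+ arrays. Ocn+ replicate 3 lay above Osx+ replicate 1, so the groups overlapped. The difference was -1.13 (SE 0.44, limma adjusted p = 0.935) and the other probe set, at 4.81 against 4.87, gave -0.05. Kcne4, a subunit that restrains Kcnq1, was steady at 12.21 ± 0.20 in Ocn+ (SD, n = 3) and 12.17 ± 0.21 in Osx+ (SD, n = 4). Its difference of 0.05 (SE 0.18) stands beside that of 3.57 for Kcne3 in the same gene family. Kcnmb4, a partner of the large-conductance channel, differed by -0.32 (SE 0.47), and 8 of the 15 auxiliary genes were dim. The pacemaker genes Hcn2 and Hcn3, whose channels open on hyperpolarization, were both dim, with differences of 0.03 (SE 0.26) and -0.04 (SE 0.48). Hcn3 was dim by its means but read 7.33 in Osx+ replicate 3, with the other Osx+ arrays at 5.36 to 5.81.

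**Figure D3:**
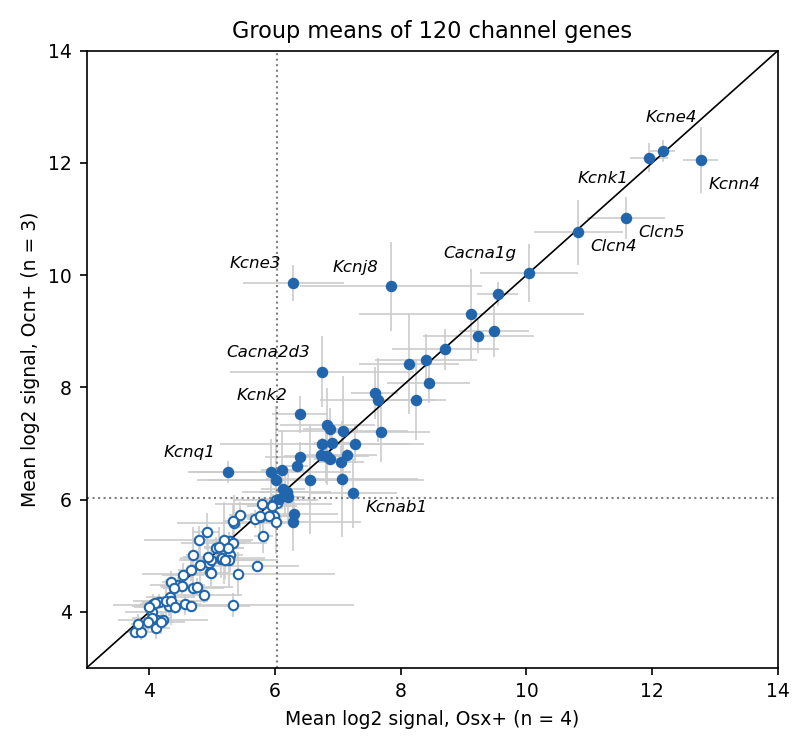
Mean log2 signal of the 120 channel genes in Ocn+ arrays (n = 3) against Osx+ arrays (n = 4), with SD bars in grey, the line of equal means in black and the dim limit of 6.03 dotted. Open points are dim in both groups. Kcne3 and Kcnj8 lie farthest above the line among the filled points, Kcne4 and Kcnk1 lie close to it, and Kcnn4 lies below it.

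Calcium channel pores did not separate the groups in any gene above the dim limit. Cacna1g, a low-voltage-activated pore, read 10.64, 9.72 and 9.76 in the Ocn+ arrays and 10.63, 9.10, 10.72 and 9.69 in the Osx+ arrays, with a difference of 0.00 (SE 0.46). Cacna1c, the long-lasting type pore of muscle and osteoblasts, stood at 9.66 ± 0.22 in Ocn+ (SD, n = 3) and 9.54 ± 0.32 in Osx+ (SD, n = 4), a difference of 0.12 (SE 0.22). Cacna1h, another low-voltage-activated pore, ran from 5.45 to 7.36 in Ocn+ and from 4.98 to 8.51 in Osx+, and differed by -0.22 (SE 0.98). Its other probe set differed by 0.34. Cacna1a, a presynaptic pore, differed by -0.34 (SE 0.28). The 4 dim pores included Cacna1e, whose groups did not overlap at 3.49 to 3.90 in Ocn+ against 3.97 to 4.43 in Osx+ (difference -0.39, SE 0.19).

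Of the auxiliary calcium channel subunits, Cacna2d3 had the largest difference. Such alpha2delta proteins carry pores to the cell surface. Cacna2d3 read 8.54, 8.74 and 7.56 in the Ocn+ arrays and 4.98, 6.15, 8.16 and 7.71 in the Osx+ arrays. Osx+ replicates 3 and 4 lay within the Ocn+ range and replicates 1 and 2 below it. The difference was 1.53 (SE 0.78), with a limma adjusted p of 0.999. At the probe sets used, its relatives Cacna2d1 and Cacna2d2 differed in the other direction, by -0.48 (SE 0.45) and -0.39 (SE 0.25). The other probe set of Cacna2d1 gave -0.09. Those of Cacna2d2 gave 0.12 and 0.02, so its direction depends on the probe set. Cacnb1, a cytoplasmic subunit, differed by 0.13 (SE 0.66), and its other probe sets by -0.27 and 0.20. Of the 14 auxiliary genes 8 were dim, among them Cacng5 (difference -0.47, SE 0.19), Cacng3 (-0.43, SE 0.20) and Cacng7 (0.28, SE 0.18).

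TRP channels pass calcium and other cations in response to stretch, heat, lipids or store release. Trpv4, an osmotic and mechanical sensor of cartilage and bone cells, read 9.50, 8.86 and 8.62 in the Ocn+ arrays and 10.25, 9.32, 9.47 and 8.93 in the Osx+ arrays. The groups overlapped, with a difference of -0.50 (SE 0.36). The Xist classes did not overlap, at 9.47 to 10.25 in low-Xist and 8.62 to 9.32 in high-Xist arrays. Cartilage markers were lower in Ocn+ too, with list means of 9.88 to 11.39 against 10.90 to 12.76, 9 of 9 measured, 1 above 0 and 0 dim, and their part in the Trpv4 values was not tested. Trpv2, a channel of macrophages and other cells, differed by 0.09 (SE 0.46) and Trpv6, a calcium-selective epithelial channel, was dim at 4.86 ± 0.16 in Ocn+ (SD, n = 3) and 4.94 ± 0.12 in Osx+ (SD, n = 4). Trpc1, a widely expressed channel subunit, differed by -0.36 (SE 0.38), Trpc4 by -0.55 (SE 0.37) and Trpc7 by -0.07 (SE 0.17). Trpc6, a lipid-gated channel, was dim and differed by 0.49 (SE 0.46). Trpm7, a channel joined to a kinase and tied to magnesium balance, differed by -0.28 (SE 0.47), and its other probe sets by -0.08 and -0.74. Trpm5, a monovalent channel opened by calcium, differed by 0.33 (SE 0.77) and by -0.18 at its other probe set. Trpm6 (difference -0.11, SE 0.19) and Trpm8 were dim, and for Trpm8 the groups were apart by a difference of -0.26 (SE 0.16).

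The ClC family contains chloride channels and the chloride-proton exchangers of endosomes and lysosomes. Clcn7, the exchanger of lysosomes and of the osteoclast border, read 7.68, 6.98 and 7.08 in the Ocn+ arrays and 7.18, 6.37, 7.29 and 6.65 in the Osx+ arrays. The groups overlapped, at a difference of 0.37 (SE 0.30), on the same arrays whose osteoclast list means did not. The Xist classes did not overlap for Clcn7, at 7.18 to 7.68 in low-Xist and 6.37 to 7.08 in high-Xist arrays. At its other probe set the group difference was 0.04 and the Xist classes overlapped. The endosomal exchanger Clcn5 read 10.63, 11.04 and 11.38 in Ocn+ and 10.79, 12.19, 11.41 and 11.94 in Osx+, a difference of -0.57 (SE 0.37). Its other probe sets differed by -0.68 and -0.10. Clcn4, also endosomal, differed by -0.06 (SE 0.44) and by -0.27 at its other probe set. Clcn3 differed by 0.18 (SE 0.95), and its other probe sets went the other way, by -0.09, -0.09 and -0.40.

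Sodium channel genes were dim without exception among the 12 measured. The voltage-gated pores Scn8a, Scn10a, Scn1a and Scn3a differed by -0.06 (SE 0.24), -0.41 (SE 0.27), -0.33 (SE 0.46) and -0.32 (SE 0.20). The other probe set of Scn8a gave -0.82, at 4.92 in Ocn+ and 5.74 in Osx+, so its difference depends on the probe set. Scn3b, the single beta subunit measured, differed by -0.57 (SE 0.33). The epithelial sodium channel subunits Scnn1a, Scnn1b and Scnn1g, which take up sodium in kidney and airway, differed by 0.09, -0.05 and -0.15.

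As was so over all genes, more members followed the Xist signal and the transcript ends than the cell groups. The cell groups did not overlap for 5.83% of members and 6.9% of all genes. The 3 low-Xist and 4 high-Xist arrays did not overlap for 35 members (29.2%), 27 higher and 8 lower in the low-Xist arrays, against 34.3% of all genes (21.4% higher and 12.9% lower). Clcn3 read 8.38, 6.67 and 8.95 in the low-Xist arrays and 9.59 to 10.68 in the others. Kcnma1 read 5.20 to 6.04 against 6.74 to 8.34, and Cacna1c 9.13 to 9.48 against 9.65 to 9.90. In the other direction, Cacna1h read 7.36 to 8.51 in the low-Xist and 4.98 to 6.22 in the high-Xist arrays. Trpm5 read 6.91 to 7.86 in the low-Xist and 5.06 to 5.63 in the high-Xist arrays, and Cacna1g 10.63 to 10.72 against 9.10 to 9.76. Low-Xist minus high-Xist differences were -2.10 for Clcn3, -1.77 for Kcnma1, 2.42 for Cacna1h and 1.93 for Trpm5, each larger than the same gene's difference between cell groups. These genes are shown because their classes did not overlap, so the larger difference between classes follows in part from that choice. At the other probe sets of Cacna1h and Trpm5 the classes overlapped. At that of Kcnma1 they did not, and the other probe sets of Clcn3 varied. For Kcne3 the classes are compared within a cell group: in Osx+ the low-Xist arrays read 7.16 and 6.59 and the others 5.25 and 6.15, and in Ocn+ the low-Xist array read 9.65 and the others 9.69 and 10.24. These classes were defined from the data, the end balance of Gapdh and pyruvate carboxylase moved with them, and its part in these values was not tested.

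**Figure D4:**
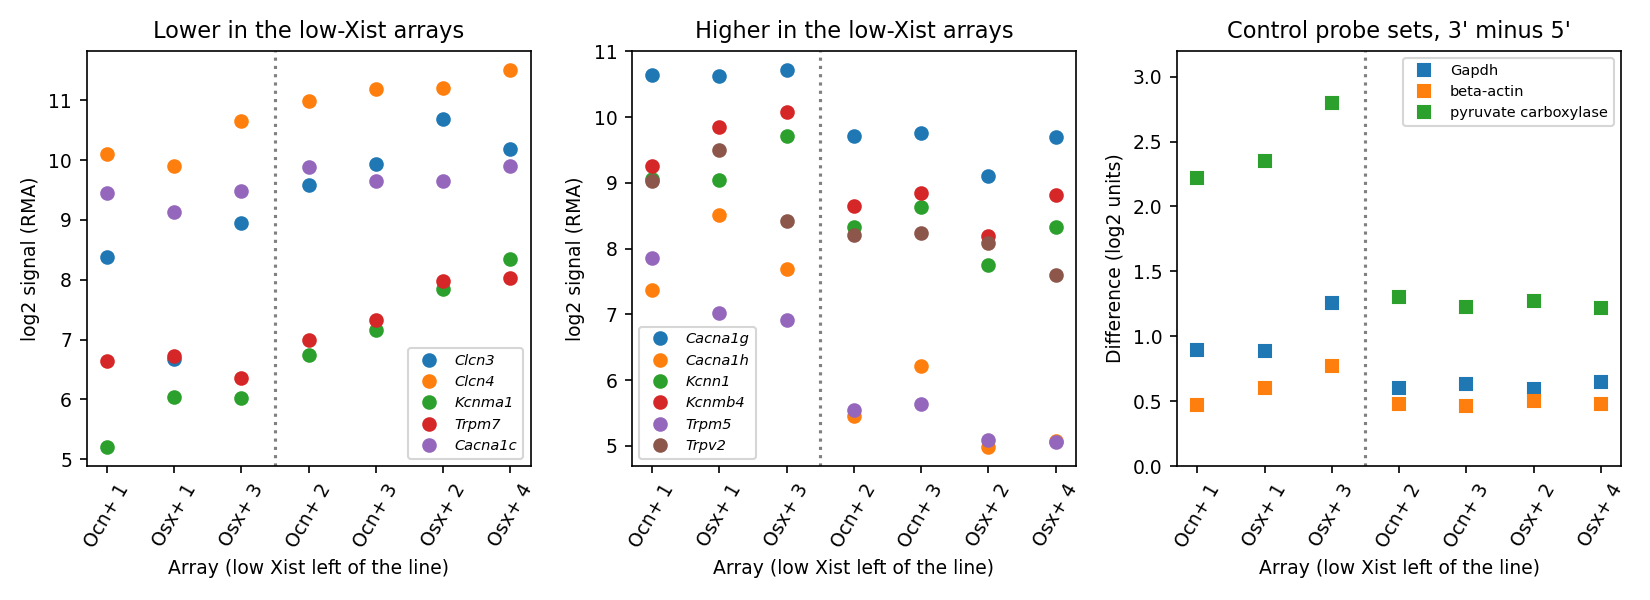
Log2 signal of 5 channel genes lower (left) and 6 higher (middle) in the 3 low-Xist arrays, and the 3′ minus 5′ difference in log2 units of 3 control transcripts (right), 1 point an array, with low-Xist arrays left of the dotted line. In both gene panels no gene overlaps between the low-Xist and high-Xist arrays, and the pyruvate carboxylase points lie at 2.22 to 2.80 left of the line and at 1.22 to 1.30 right of it.

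Channel genes outside these symbols were read from a list of 63, of which 41 were measured and 9 were dim. No gene of that list passed in limma. Of the 41, 1 had an unadjusted p under 0.05, where 5.31% of all genes met that level. There were 19 above 0, where 52.7% of all genes were, and the median difference was -0.02. For 2 of them the groups did not overlap, both higher in Ocn+ (background 4.37%). The gene with an unadjusted p under 0.05 was Tmem38b, a potassium-permeable channel of the endoplasmic reticulum whose loss causes brittle bone. It stood at 9.94 ± 0.16 in Ocn+ (SD, n = 3) and 8.81 ± 0.75 in Osx+ (SD, n = 4), did not overlap, and differed by 1.13 (SE 0.40, limma adjusted p = 0.888). Mcoln2, a lysosomal cation channel of immune cells, differed by -1.41 (SE 0.66). The gap junction genes Gjc1 and Gja1 differed by 0.30 (SE 0.20) and -0.01 (SE 0.25), and the lysosomal channels Tmem175 and Mcoln1 by 0.32 (SE 0.23) and 0.38 (SE 0.28). The outer mitochondrial membrane channels Vdac1 and Vdac2 differed by -0.08 (SE 0.13) and 0.19 (SE 0.14). For Vdac2 the groups did not overlap, at 13.18 to 13.33 in Ocn+ and 12.99 to 13.16 in Osx+. The chloride-linked proteins Clic1, Clic4 and Clns1a differed by 0.05, -0.07 and -0.14.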

How the data were processed

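Total RNA of 3 Ocn+ and 4 Osx+ samples was amplified as cDNA and hybridised to Affymetrix mouse arrays, per the labels' protocols. The deposited log2 values, 1 per probe set and array, come from RMA run by the authors, as the submitters' processing notes say (per the labels). Its version is not given in the sources used here. RMA makes array distributions nearly equal, so total RNA per cell cannot be read. Arrays have no read depth, and their number limits the precision.

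Of 22690 probe sets 64 were controls, 20380 had 1 platform symbol, 691 several and 1555 none listed. Only those with 1 symbol were used, and 20351 of them matched a RefSeq gene by Entrez identifier. Groups came from the titles. Ocn+ minus Osx+ was fitted on 12393 genes with limma 3.58.1 in R 4.3.3 (lmFit, eBayes), 2-sided. Adjusted p-values follow Benjamini and Hochberg across the whole gene table, called under 0.05, and the script was tested on simulated data. Alternatives were a replicate block, each array left out, a filter on genes under the 25th percentile, quantile normalization, median centring, the mean of all probe sets, a trended robust prior, array weights, the Xist class as a term and a threshold of 0.1.

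Members and lists were chosen with earlier results of these data known. Named genes were the 12 of smallest p per direction, the 3 brightest per sub-family and a list with roles in bone or marrow. From the outside list the 6 of smallest p and 6 brightest were taken. Any gene outside these rules is marked where it appears. Of the role list, Trpm2, Trpm4 and Trpv5 were not analysed here. Marker list means for megakaryocytes were 0.64 lower in Ocn+ than in Osx+ (7.78 against 8.42), and the erythroid (7.04 against 7.28), lymphoid (6.00 against 5.97) and nerve and glia (7.45 against 7.60) lists lay closer.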

Additional observations from a re-analysis of the deposited data

Results flagged for a closer look

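In the group of 4 Osx+ arrays, 4 of the 120 channel genes had a single array far from the other 3 by Dixon's criterion (gap over range above 0.829), a test that flags about 5% of groups by chance. Ocn+, with 3 arrays, was not tested. Cacna2d1, a calcium channel auxiliary subunit, read 6.54 in Osx+ replicate 1 and 7.98 to 8.14 in the other 3. Cacna1e, dim, read 4.43 in Osx+ replicate 1 and 3.97 to 4.02 in the others. Kcnq5, a voltage-gated potassium pore chosen after its values were seen, was dim by its means and read 7.70 in Osx+ replicate 1, with the others at 4.33 to 4.88. Scn11a, a sodium channel pore of sensory neurons also chosen after its values were seen, read 8.18 in Osx+ replicate 3 and 4.04 to 4.71 in the others. Its group difference was -1.21, the lowest of the members, and -0.11 over the 4 high-Xist arrays, which do not include that array.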

How the results depend on the processing

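The count of called genes was 0 over all genes and 0 over the channel genes. With array weights it was 97 and 2. Over all genes it was 3 without Osx+ replicate 2 and 3 without Osx+ replicate 3, so that leaving out an array gave 0 to 3 over all genes and 0 to 0 over the channel genes, and the other alternatives gave 0. With the replicate number as a block, 0 genes and 0 channel genes were called. Same-numbered arrays correlated in their deviations at 0.63, 0.45 and -0.30, and Ocn+ replicate 2 correlated best with Osx+ replicate 4, so the numbers were not taken to pair samples. The 9 channel genes with an unadjusted p under 0.05 kept their sign under each alternative in which they were tested, and 19 of the 60 named genes changed sign under at least 1. Those 9 genes were picked for a small p on the same arrays, so their kept signs are no independent support. The share of channel genes above 0 ran from 30.8% to 52.1% and their median from -0.13 to 0.02, so no direction of the set as a whole is read. All 88 family medians under the alternatives stayed within 1 SD of the spread between arrays. Kcnq1, whose mean lies under the filter limit, was not tested with dim genes left out. Of the 42 channel genes with several probe sets, 28 had all of them on the same side of 0. Among the 25 of these genes that were not dim, 14 did and 11 were mixed. The number of arrays, 3 against 4, limits the precision, and 41 channel genes stayed under the highest bacterial control value on all arrays, so their level is not shown to exceed background.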
